A study of Rattus norvegicus with 9 samples.

Results

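Genes that start, restrain and dissolve blood clots were followed in the wall of the superior mesenteric artery of the rat. The 9 genes were chosen by their roles in coagulation and fibrinolysis, with earlier results of these data known: F3 and Tfpi, which start coagulation and block that start, Thbd and Procr, the endothelial receptors of the protein C system, Vwf, the platelet tether of the vessel wall, Plat, Plau and Plaur, the plasminogen activators and a receptor, and Thbs1, a matrix protein released by platelets and wall cells. They are 9 of 37203 gene symbols in the count table, and all 9 were among the 15482 genes with enough counts to be tested.

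RNA was sequenced from arteries of Sprague-Dawley rats aged 8 weeks and weighing 220 to 240 g, with no transgene or drug as a variable. The 3 groups of 3 libraries were normal controls and bled animals whose ischemia lasted either 1 h or 4 h. Ischemia was produced by bleeding anaesthetised rats through a catheter in the femoral artery, so the whole animal lost blood. Whether the normal rats were anaesthetised or catheterised is not given in the sources used here, and surgery and anaesthesia therefore cannot be told apart from blood loss. The series describes 3 rats per group, so each library is taken as 1 rat, although the study's methods can be read as 3 individuals in all. P-values measure the spread between these libraries.

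Coagulation starts when tissue factor, which cells outside the endothelium display, meets plasma factor VII, and it ends in thrombin and fibrin. Healthy endothelium opposes this: it carries thrombomodulin, which turns thrombin into an activator of protein C, the endothelial protein C receptor, which presents protein C to that complex, and tissue factor pathway inhibitor. It also stores von Willebrand factor and releases tissue plasminogen activator, which makes plasmin on fibrin. Most plasma clotting factors are made in the liver.

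Totals per library ran from 13114273 to 15504240 counts, and levels are given as CPM, counts on a common scale after the TMM method adjusted the library totals. Libraries differed in tissue content across and within groups. Smooth muscle markers (10 of 10 measured) summed to between 11400 and 70400 CPM, and the 12 endothelial markers to between 847 and 1930 CPM, with Robo4 at 0 in normal replicate 3 and the others present throughout. Smooth muscle and endothelium of the labelled artery were thus found in all 9 libraries. The 20 peripheral nerve markers summed to 3770, 110 and 936 CPM in normal replicates 1 to 3, to 10000, 2510 and 10600 CPM at 1 h, and to 292, 1520 and 10500 CPM at 4 h. Dbh, the noradrenaline-making enzyme of sympathetic neurons, was at 0 in normal replicate 2. In whole tissue, fewer cells of a type and less RNA per cell cannot be told apart.

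Thbd was lower at 4 h (0.409-fold, 57.8 ± 12.7 against 141 ± 33.9 CPM, SD, n = 3 each), and Plat had about the same higher mean at both stages (2.22-fold at 1 h, 2.05-fold at 4 h). Plaur (3.63-fold) and Thbs1 (7.75-fold) were highest at 1 h, Thbs1 in 2 of 3 libraries. F3, Tfpi and Vwf overlapped between all groups. None of these differences passed the test over all genes. After 1 h, 0 of the 9 genes were called at an adjusted p under 0.05 and a fold change over 1.5 (edgeR quasi-likelihood test, Benjamini-Hochberg over all genes), where 0.0581% of all genes were called. At an unadjusted p under 0.05 there were 3 of 9 (Plat, Plaur and Thbs1, each higher), where 16.7% of all genes passed and 7.98% passed as higher. After 4 h, 0 of 9 were called, against 0.0904% of all genes, and 2 of 9 (Plat higher, Thbd lower) had an unadjusted p under 0.05, against 12.4% (5.07% higher and 7.35% lower). Between 4 h and 1 h, 0 of 9 were called, against 0% of all genes, and 1 of 9 (Thbs1, lower at 4 h) had an unadjusted p under 0.05, against 2.58% (1.25% lower). Over the 3 groups together 0 of 9 were called, against 0.0388%, and 4 of 9 (Thbs1, Thbd, Plaur and Plat) had an unadjusted p under 0.05, against 11.4%. The adjusted p of the 9 genes ran from 0.224 to 0.998 at 1 h, from 0.172 to 0.992 at 4 h and from 0.856 to 0.964 between the stages. DESeq2 called Plaur and Thbs1 at 1 h, Thbd at 4 h and 0 members between the stages, where it called 4.8%, 4.08% and 0% of the genes with an adjusted p. Median log2 fold changes of the 9 genes were 0.07, 0.04 and -0.67 in these 3 comparisons, and those of all genes tested were -0.0076, 0.03 and -0.04. Contrasts against normal share the 3 normal libraries.

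**Figure D1:**
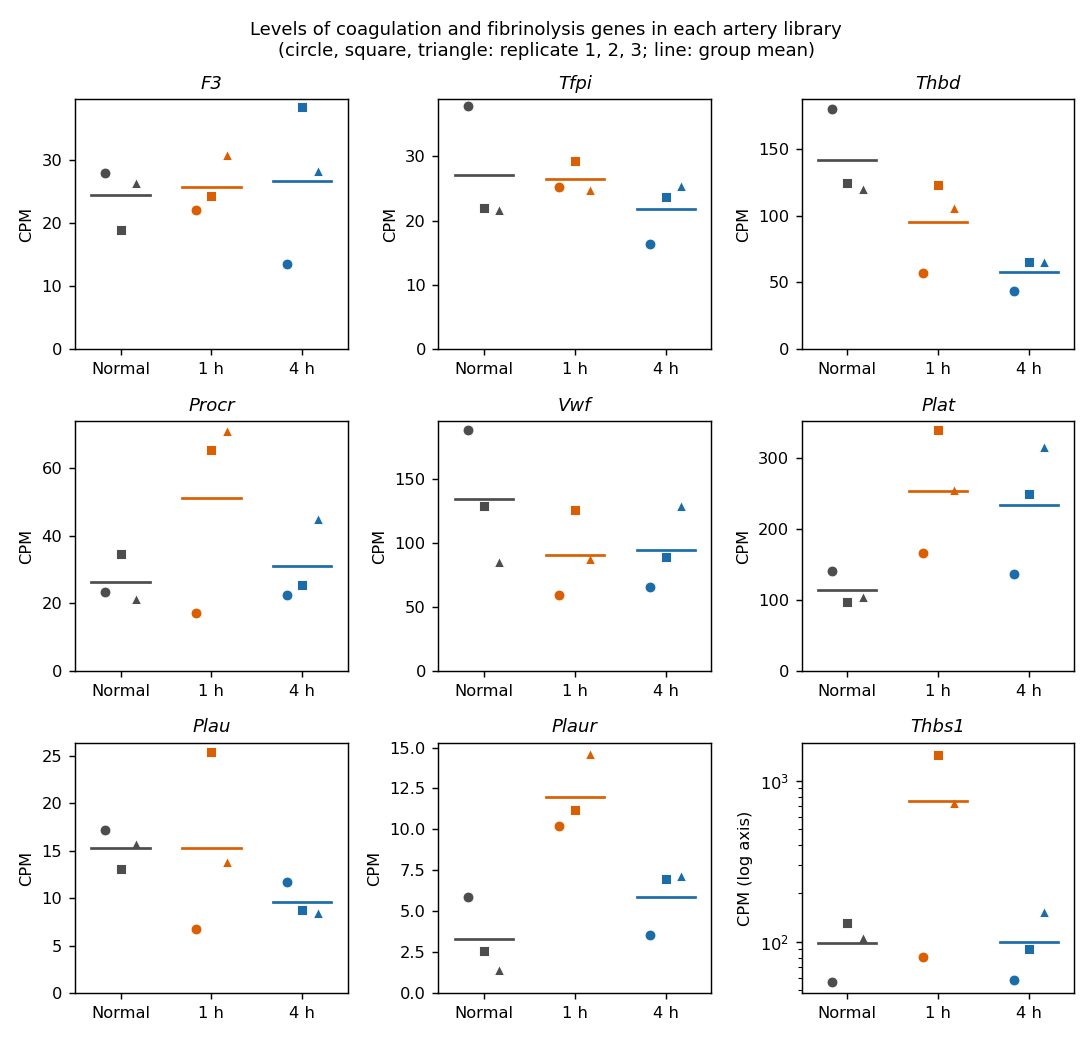
Level of each of the 9 genes in each library in CPM, by group, with circle, square and triangle for replicates 1, 2 and 3 and a line at the group mean; the Thbs1 axis is logarithmic and the others start at 0. Thbd at 4 h (43.2 to 65.4 CPM) lies below every normal library, Plaur at 1 h (10.2 to 14.6 CPM) above every library of the other groups, and Thbs1 is far above the rest in replicates 2 and 3 at 1 h only.

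RefSeq upstream sequence was at hand for 4 of the 9 genes (Procr, Plau, Plaur and Thbs1), as the 250 bases before the annotated start on assembly GRCr8. The 3 shown belong to Procr and Thbs1, whose levels were highest in the same 2 libraries, and to Plaur, whose libraries at 1 h stood above all others. Capitals mark matches, on either strand, to any of 7 motifs. These were the AP-1 site, searched as TGANTCA, the GC box, searched as GGGCGG, and the CACCC box, searched as CACCC. The TATA box was searched as TATAA and the core of the hypoxia response element as ACGTG. NF-kB and the CArG box were searched by their usual consensus, and matches of different motifs did not overlap.
Procr (chr3:164714477-164714726, plus strand): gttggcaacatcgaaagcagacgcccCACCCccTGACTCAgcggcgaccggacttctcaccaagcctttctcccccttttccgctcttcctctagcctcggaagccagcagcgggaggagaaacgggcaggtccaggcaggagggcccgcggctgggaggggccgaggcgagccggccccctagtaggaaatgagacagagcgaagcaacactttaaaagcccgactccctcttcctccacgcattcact
Plaur (chr1:89181113-89181362, plus strand): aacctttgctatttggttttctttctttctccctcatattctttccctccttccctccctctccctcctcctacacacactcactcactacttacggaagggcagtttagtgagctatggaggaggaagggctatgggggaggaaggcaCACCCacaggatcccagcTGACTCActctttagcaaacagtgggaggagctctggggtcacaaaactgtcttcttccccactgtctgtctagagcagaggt
Thbs1 (chr3:125510000-125510249, plus strand): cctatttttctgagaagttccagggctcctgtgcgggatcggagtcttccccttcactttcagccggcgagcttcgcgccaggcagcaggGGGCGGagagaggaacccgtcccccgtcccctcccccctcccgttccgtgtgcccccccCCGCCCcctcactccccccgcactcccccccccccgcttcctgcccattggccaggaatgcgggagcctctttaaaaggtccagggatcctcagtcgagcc
Procr held an AP-1 match 217 to 211 bases before the start and a CACCC box at 224 to 220. Plaur held an AP-1 match 83 to 77 bases before the start and a CACCC box at 101 to 97. Of 33469 rat promoters of this length, 6.34% held an AP-1 match and 49.2% a CACCC box. Thbs1 and Plau held no AP-1 match in this window, and their matches were GC boxes, 2 in Thbs1 and 3 in Plau, a motif present in 30.5% of promoters. None of these 4 windows held the TATA letters (24% of promoters), the hypoxia core (16.6%), NF-kB (6.33%) or a CArG box (1.5%). These matches describe letters and were not tested for binding.

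F3, the gene of tissue factor, had group means of 24.4 ± 4.72 CPM in normal rats, 25.7 ± 4.50 CPM at 1 h and 26.7 ± 12.5 CPM at 4 h (SD, n = 3 each). Its level was 27.9, 19 and 26.4 CPM in normal replicates 1 to 3, 22.1, 24.3 and 30.8 CPM at 1 h, and 13.5, 38.4 and 28.3 CPM at 4 h. Groups overlapped, and the 4 h libraries spread most, with replicate 1 below and replicate 2 above every library of the other groups. The log2 fold change was 0.07 at 1 h (SE 0.36, 95% interval -0.75 to 0.90, adjusted p = 0.927) and 0.13 at 4 h (SE 0.36, interval -0.70 to 0.96, adjusted p = 0.908). A change of 2-fold in either direction lies outside both intervals. The sign was not stable, with -0.09 at 1 h without replicate 3 at 1 h and -0.23 at 4 h without replicate 2 at 4 h. Haus3, Ctsf and Lrrn3 were the genes whose log2 CPM followed F3 most closely over the 9 libraries (Pearson r 0.889, 0.884 and 0.879), out of 10305 other genes averaging at least 5 CPM. Such correlations, here and below, are descriptions over 9 libraries that also share tissue content.

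Tfpi, the inhibitor of the tissue factor and factor VII complex, was at 37.8, 22 and 21.7 CPM in normal replicates 1 to 3. It was at 25.2, 29.3 and 24.8 CPM at 1 h and at 16.3, 23.7 and 25.4 CPM at 4 h. Normal replicate 1 was the highest of all 9 libraries, replicate 1 at 4 h was the lowest, and groups overlapped. Log2 fold changes were -0.04 at 1 h (SE 0.27, adjusted p = 0.946) and -0.32 at 4 h (SE 0.27, interval -0.95 to 0.31, adjusted p = 0.649). Without normal replicate 1 they were 0.27 and -0.0060. Its closest genes were Cdh5, the endothelial cadherin (r = 0.982), Prom1 (0.974) and Tmem45b (0.967). Cdh5 is among the 12 endothelial markers, whose summed level was also highest in normal replicate 1 and lowest in replicate 1 at 4 h.

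Thbd, the gene of thrombomodulin, was the member with the clearest separation. Its level was 180, 124 and 120 CPM in normal rats, 57.3, 123 and 106 CPM at 1 h, and 43.2, 65 and 65.4 CPM at 4 h. Every 4 h library was below every normal library, and at 1 h replicate 1 stood near the 4 h libraries while replicates 2 and 3 stood near the lowest normal ones. Mean levels were 141 ± 33.9 CPM in normal rats, 95.6 ± 34.3 CPM at 1 h and 57.8 ± 12.7 CPM at 4 h (SD, n = 3 each). At 4 h the log2 fold change was -1.29 (SE 0.33, interval -2.03 to -0.54, adjusted p = 0.172), which did not pass over all genes. At 1 h it was -0.56 (SE 0.32, interval -1.30 to 0.17, adjusted p = 0.358), and between 4 h and 1 h it was -0.72 (SE 0.32, adjusted p = 0.856). DESeq2 called the 4 h difference (log2 fold change -1.27, adjusted p = 0.013), and across 17 alternatives its adjusted p ran from 0.013 to 0.398. In these alternatives the value lay between -1.47 and -0.84. Groups without overlap were common: 18.7% of all genes had none at 4 h, and 10.8% had all 4 h libraries below all normal ones. Among the 9 members, 2 had none at 4 h, Thbd and Plau, each lower.

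Endothelial, macrophage and lymphocyte markers also had negative median log2 fold changes at 4 h, as had adipocyte (-0.62), mesothelial (-0.38) and fibroblast (-0.29) markers. Smooth muscle markers had a median of 0.42, with 10 of 10 above 0, and nerve, neutrophil, platelet and red cell markers had positive medians. The level of Thbd was set against the endothelial list within each library. The 12 markers summed to 1930, 1390 and 1040 CPM in normal replicates 1 to 3, to 888, 1380 and 1010 CPM at 1 h and to 847, 1180 and 1050 CPM at 4 h. Of these sums Esam was 150 CPM in normal replicate 1 and 291 CPM in replicate 1 at 4 h. Those libraries had the lowest and highest smooth muscle sums, and the part of muscle content in ratios to the endothelial list was not tested. Of the 11 markers tested, 10 were below 0 on the log2 fold change scale at 4 h, with a median of -0.66, and 0 were called. Per 100 CPM of this list, Thbd stood at 9.36, 8.93 and 11.5 CPM in normal rats, at 6.45, 8.95 and 10.5 CPM at 1 h, and at 5.09, 5.5 and 6.22 CPM at 4 h. The 4 h libraries were again below all normal ones, at a mean of 5.61 ± 0.571 against 9.91 ± 1.35 (SD, n = 3 each), where 2.25% of all genes stood lower without overlap on this scale. With the mean of the endothelial markers as a covariate, an alternative chosen after the data were seen, the log2 fold change of Thbd at 4 h was -0.84 (adjusted p = 0.332). All 8 macrophage markers tested were below 0 at 4 h, with a median of -0.67 and 0 called. They summed to 142, 48.5 and 102 CPM in normal rats, 74.1, 90.8 and 141 CPM at 1 h and 35.2, 54.8 and 86.1 CPM at 4 h. The 9 lymphocyte markers, 2 of them tested and both below 0, summed to 7.01 to 47 CPM in normal rats, 7.95 to 51.4 CPM at 1 h and 4.63 to 8.95 CPM at 4 h, with Cd79a at 0 in all 9 libraries. Over the 9 libraries Thbd had correlations of 0.825, 0.665 and 0.717 with the mean log2 CPM of the endothelial, macrophage and lymphocyte markers tested. These means rest on 11, 8 and 2 genes, and the part of macrophages and lymphocytes was not tested. Genes closest to Thbd were Rps6ka5 (r = 0.971), Helb (0.969) and Stk17b (0.959).

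**Figure D2:**
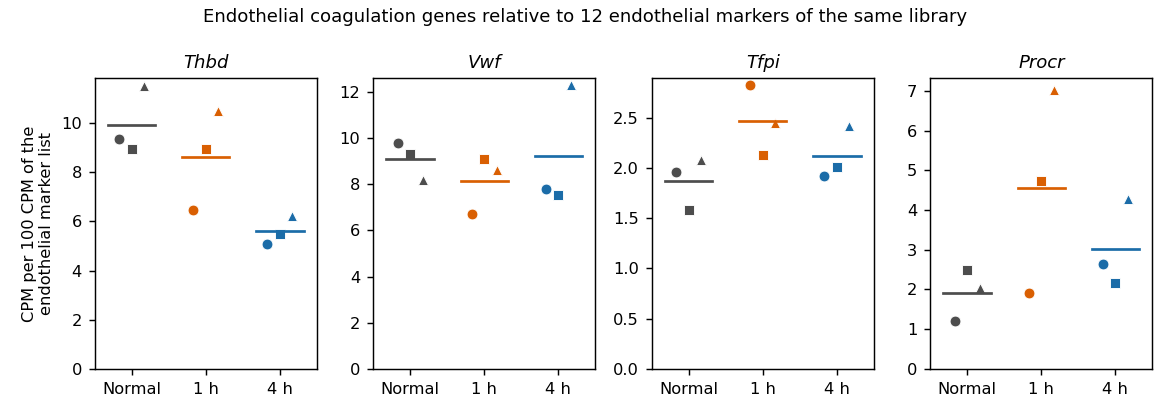
Thbd, Vwf, Tfpi and Procr in each library as CPM per 100 CPM of the 12 endothelial markers of that library, by group, with circle, square and triangle for replicates 1, 2 and 3, a line at the group mean and axes from 0. Thbd at 4 h (5.09 to 6.22) lies below the normal range (8.93 to 11.5), whereas Vwf at 4 h (7.53 to 12.3) spans its normal range (8.2 to 9.77).

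Procr, the gene of the endothelial protein C receptor, did not follow Thbd. It was at 23.3, 34.6 and 21.2 CPM in normal rats, at 17.1, 65.3 and 71.1 CPM at 1 h, and at 22.4, 25.5 and 44.9 CPM at 4 h. Replicates 2 and 3 at 1 h were the highest libraries, replicate 1 at 1 h was the lowest of all 9, and groups overlapped. The log2 fold change was 0.96 at 1 h (SE 0.52, interval -0.23 to 2.14, adjusted p = 0.344) and 0.23 at 4 h (SE 0.51, interval -0.95 to 1.41, adjusted p = 0.881). Leaving out replicate 1 at 1 h gave 1.37, and leaving out replicate 3 at 1 h gave 0.64. Tnfaip2, a gene induced by tumour necrosis factor, was closest to Procr (r = 0.986), before Utp15 (0.963) and Sec24a (0.945). Procr and Thbs1 had the highest correlation of the 36 pairs of members (r = 0.896).

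Vwf, the gene of von Willebrand factor, followed the endothelial markers. It was at 189, 129 and 85.7 CPM in normal rats, at 59.7, 126 and 87.4 CPM at 1 h, and at 66.1, 88.9 and 129 CPM at 4 h. Groups overlapped, with normal replicate 1 highest and replicate 1 at 1 h lowest. Log2 fold changes were -0.56 at 1 h (SE 0.39, interval -1.45 to 0.33, adjusted p = 0.436) and -0.51 at 4 h (SE 0.39, interval -1.40 to 0.38, adjusted p = 0.61). Per 100 CPM of the endothelial list Vwf stood at 9.09 ± 0.805 CPM in normal rats, 8.15 ± 1.26 CPM at 1 h and 9.2 ± 2.66 CPM at 4 h (SD, n = 3 each). With the endothelial markers as a covariate the log2 fold change was -0.12 at 1 h and 0.16 at 4 h. Its closest genes were Pecam1 (r = 0.948) and Tek (0.947), which are themselves on the endothelial list, and Arhgap42 (0.947).

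Plat, the gene of tissue plasminogen activator, was higher in mean at both stages. Its level was 141, 97.7 and 104 CPM in normal rats, 166, 340 and 255 CPM at 1 h, and 137, 250 and 316 CPM at 4 h. All 1 h libraries were above all normal ones, and at 4 h replicate 1 lay just under normal replicate 1. Means were 114 ± 23.5, 254 ± 86.8 and 234 ± 90.7 CPM (SD, n = 3 each). The log2 fold change was 1.15 at 1 h (2.22-fold, SE 0.37, interval 0.301 to 1.999, adjusted p = 0.24) and 1.04 at 4 h (2.05-fold, SE 0.37, interval 0.19 to 1.88, adjusted p = 0.309). Between the stages it was -0.11 (SE 0.37, interval -0.95 to 0.72, adjusted p = 0.922). The 17 alternatives gave 0.88 to 1.45 at 1 h (adjusted p 0.0526 to 0.597) and 0.76 to 1.48 at 4 h (adjusted p 0.108 to 0.555). Relative to the endothelial list, Plat was at 7.02 to 9.97 CPM per 100 CPM in normal rats, 18.7 to 25.2 at 1 h and 16.2 to 30.1 at 4 h. Both stages stood above all normal libraries on this scale, as did 17.7% of all genes at 1 h and 15.3% at 4 h. Plaur did so too, at 0.134 to 0.305 in normal rats, 0.809 to 1.44 at 1 h and 0.42 to 0.679 at 4 h. Tfpi stood above all normal libraries on this scale at 1 h only, at 2.13 to 2.83 against 1.58 to 2.08. Zbtb20 (r = 0.969), Rel, a subunit of NF-kB (0.967), and Tm9sf3 (0.965) were closest to Plat.

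Plau, the gene of urokinase, differed from Plat. It was at 17.2, 13.1 and 15.7 CPM in normal rats, at 6.76, 25.4 and 13.8 CPM at 1 h, and at 11.7, 8.79 and 8.39 CPM at 4 h. The 1 h libraries reached both above and below the normal range, and all 4 h libraries were below it. Log2 fold changes were -0.0023 at 1 h (SE 0.43, interval -0.98 to 0.97, adjusted p = 0.998) and -0.67 at 4 h (SE 0.43, interval -1.65 to 0.31, adjusted p = 0.554). The 1 h value was 0.35 without replicate 1 at 1 h and -0.58 without replicate 2 at 1 h. Stk10 (r = 0.947), Ddx6 (0.908) and Nfe2l2 (0.907) followed it most closely.

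Plaur, the gene of the urokinase receptor, had the highest level at 1 h. It was at 5.88, 2.55 and 1.4 CPM in normal rats, at 10.2, 11.2 and 14.6 CPM at 1 h, and at 3.56, 6.96 and 7.13 CPM at 4 h. Counts behind the normal values were 105, 35 and 19, so counting error weighed most there. All 1 h libraries stood above all normal and all 4 h libraries, while the 4 h and normal libraries overlapped. At 1 h the log2 fold change was 1.86 (3.63-fold, SE 0.53, interval 0.65 to 3.07, adjusted p = 0.224), and at 4 h it was 0.84 (SE 0.52, interval -0.35 to 2.03, adjusted p = 0.544). Between the stages it was -1.02 (SE 0.52, interval -2.21 to 0.16, adjusted p = 0.856). DESeq2 called the 1 h difference (log2 fold change 1.89, adjusted p = 0.0179), and across 17 alternatives the adjusted p ran from 0.0179 to 0.597. The value was 2.59 with normal replicate 1 left out and 1.5 with normal replicate 3 left out. Among the members, 2 of 9 had no overlap between 1 h and normal (Plat and Plaur, each higher), where 26.3% of all genes had none and 12.8% stood higher. Between 4 h and 1 h it was 1 of 9 (Plaur, lower at 4 h), where 6.24% of all genes had none and 3.04% stood lower. Pfkfb3, a regulator of glycolysis, was closest to Plaur (r = 0.974), then Acot1 (0.946) and Zfyve20 (0.941), and among members Plat was closest (0.801).

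Thbs1, the gene of thrombospondin, varied most. It was at 56.7, 131 and 106 CPM in normal rats, at 80.4, 1460 and 730 CPM at 1 h, and at 58.2, 90.5 and 153 CPM at 4 h. Replicates 2 and 3 at 1 h were far above all other libraries, and replicate 1 at 1 h lay inside the normal range. The mean at 1 h was 758 ± 692 CPM against 97.9 ± 37.7 CPM in normal rats and 101 ± 48.0 CPM at 4 h (SD, n = 3 each). The log2 fold change at 1 h was 2.95 (SE 0.90, interval 0.89 to 5.02, adjusted p = 0.232), and at 4 h it was 0.04 (SE 0.84, interval -1.89 to 1.96, adjusted p = 0.992). Between the stages it was -2.92 (SE 0.90, interval -4.98 to -0.85, adjusted p = 0.856). DESeq2 called the 1 h difference (adjusted p = 0.0115), and across 17 alternatives the adjusted p ran from 0.0115 to 0.597. Leaving out replicate 1 at 1 h gave 3.49, and leaving out replicate 2 at 1 h gave 2.05. Sec24a (r = 0.951), Nipa2 (0.944) and Slk (0.942) were closest, and Sec24a was also among the genes closest to Procr.

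**Figure D3:**
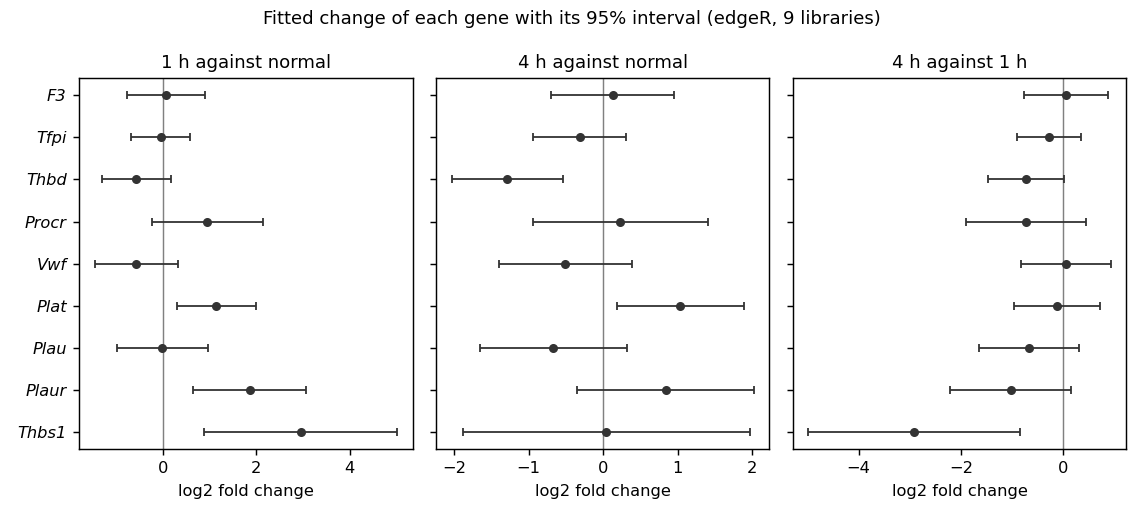
Log2 fold change of each of the 9 genes (points) with its 95% interval (bars) from the edgeR fit of all 9 libraries, for 1 h against normal, 4 h against normal and 4 h against 1 h, each panel on its own axis. Intervals clear of 0 are those of Plat, Plaur and Thbs1 at 1 h, Thbd and Plat at 4 h, and Thbs1 between the stages, and none of these passed adjustment over all genes.

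Tissue content moved with some of these levels. Nerve markers summed to between 10000 and 10600 CPM in replicates 1 and 3 at 1 h and replicate 3 at 4 h, and to at most 3770 CPM elsewhere. Plat and Plaur had correlations of 0.536 and 0.632 with the mean log2 CPM of those markers over 9 libraries, Thbs1 and Procr 0.365 and 0.307, and Thbd 0.0957. Plaur had higher correlations with the means of the 2 neutrophil markers tested (0.73) and of the adipocyte list (0.726), and a negative one with fibroblasts (-0.697). All 8 adipocyte markers were above 0 at 1 h, with a median log2 fold change of 0.88 and 0 called, and they summed to 401 to 2290 CPM in normal rats, 793 to 2050 CPM at 1 h and 298 to 978 CPM at 4 h. Fibroblast markers, 6 of 7 below 0 at 1 h, summed to 1490 to 2180 CPM in normal rats, 971 to 1520 CPM at 1 h and 1410 to 2060 CPM at 4 h. With the mean of the nerve markers as a covariate the 1 h values were 0.89 for Plat, 1.48 for Plaur and 3.01 for Thbs1, and the 4 h value of Thbd was -1.30. Platelet markers (8 of 8 measured) summed to 23.3, 26.3 and 37.1 CPM in normal rats. They summed to 16.3, 30.1 and 19.8 CPM at 1 h and to 42.4, 137 and 17.2 CPM at 4 h. Of these sums Nrgn alone was 13.2, 18.4 and 22.7 CPM in normal rats, 8.5, 20.5 and 10.9 CPM at 1 h and 29, 49.2 and 10.6 CPM at 4 h. Replicate 2 at 4 h stood apart in the sum and in Pf4 (40.2 CPM, at most 5.1 CPM elsewhere). Its Vwf and Thbs1 levels lay within the range of the other 4 h libraries, and its F3 level was the highest of all 9. Neutrophil markers (8 measured, 2 tested) summed to 0.517 to 3.19 CPM in normal rats, 2.14 to 6.82 CPM at 1 h and 0.992 to 4.75 CPM at 4 h, with 1 to 6 of them at 0 in each library (Elane in all 9, S100a8 in all normal ones), and mesothelial markers to at most 15.2 CPM. The part of cell content in these differences was not tested beyond these fits.

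Further genes of the pathway were read from fixed lists of 67, of which 64 were measured and 38 tested, and 0 were called in any comparison. Of 18 listed coagulation factors 6 were tested, and the 12 others averaged under 1 CPM, among them F2 (prothrombin), F7, F9, F10 and the fibrinogen chains Fga, Fgb and Fgg. F11 and F13b had no count in any library, which allows at most 0.168 to 0.249 CPM per library (3 counts, counting error only). The 3 with the smallest p over the 3 groups were F8, the cofactor of factor IX, F13a1, the fibrin cross-linking chain, and Vkorc1, the vitamin K reductase. F8 was at 85.4 ± 24.8, 74.4 ± 11.1 and 66.8 ± 4.91 CPM in normal rats, at 1 h and at 4 h (SD, n = 3 each). F13a1 was at 20.5 ± 5.74, 12.02 ± 6.26 and 19.6 ± 6.94 CPM. Vkorc1 was at 29.7 ± 2.69 CPM in normal rats and 19.4 ± 3.12 CPM at 1 h, with no overlap (log2 fold change -0.62, SE 0.26, adjusted p = 0.294), and at 27.1 ± 9.12 CPM at 4 h. No overlap between 1 h and normal, in either direction, was found for 26.3% of all genes. At 1 h, 1 of the 6 genes tested (Vkorc1) had an unadjusted p under 0.05, against 16.7% of all genes, and at 4 h 0 had, against 12.4%.

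Among 12 anticoagulant genes, 6 were tested, and at 1 h an unadjusted p under 0.05 was reached by 2 of them, Tfpi2 (higher) and Gas6 (lower), against 16.7% of all genes, and at 4 h by 0, against 12.4%. Proc, Serpinc1 (antithrombin) and Serpind1, products of the liver, averaged under 0.1 CPM. Tfpi2, a relative of Tfpi that inhibits plasmin, was at 4.7, 1.75 and 1.99 CPM in normal rats, 1.74, 31.1 and 50.4 CPM at 1 h and 2.32, 2.07 and 8.98 CPM at 4 h. Its high libraries were those of Procr and Thbs1. The log2 fold change at 1 h was 3.29 (SE 1.11, adjusted p = 0.258) and at 4 h 0.66 (SE 1.04, adjusted p = 0.821). Gas6, a vitamin K dependent ligand of TAM receptors, was below every normal library in all 1 h libraries, at 168 ± 43.9 against 268 ± 34.5 CPM (SD, n = 3 each), and its log2 fold change was -0.67 (SE 0.25, adjusted p = 0.277). At 4 h it was at 209 ± 38.4 CPM. Of all genes, 26.3% had no overlap between 1 h and normal in either direction. Pros1, protein S, was at 35.7 ± 10.9, 38.8 ± 10.2 and 35.1 ± 3.42 CPM (SD, n = 3 each).

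Of 13 fibrinolysis genes, 8 were tested, with 1 lower and 0 higher at an unadjusted p under 0.05 at 1 h, where 16.7% of all genes passed, and 0 at 4 h, where 12.4% passed. Plgrkt, a plasminogen receptor, was that gene, at 10.6 ± 1.62 CPM in normal rats, 5.77 ± 1.11 CPM at 1 h and 6.88 ± 2.90 CPM at 4 h (log2 fold change at 1 h -0.88, SE 0.35, adjusted p = 0.285). Serpini1, the neuronal inhibitor of tissue plasminogen activator, was at 5.93, 0.292 and 4.06 CPM in normal rats, at 79.9, 8.02 and 83.6 CPM at 1 h and at 0.661, 1.74 and 72.8 CPM at 4 h, and it was high in the 3 libraries with the highest nerve marker sums. Anxa2, a cell surface docking protein of plasminogen and its activator, was at 222 ± 19.4, 304 ± 58.9 and 311 ± 77.6 CPM (SD, n = 3 each), with log2 fold changes of 0.46 and 0.49 (SE 0.25 each, adjusted p = 0.348 and 0.471).

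Thrombin and related proteases signal through protease-activated receptors, and 3 of the 4 genes of this family were tested. At 1 h F2rl1 and F2r had an unadjusted p under 0.05, each higher, against 16.7% of all genes (7.98% higher). At 4 h F2rl1 had, also higher, against 12.4% (5.07% higher). F2rl1 was at 3.02, 4.38 and 1.33 CPM in normal rats, 7.69, 21.8 and 19.6 CPM at 1 h and 5.29, 7.3 and 16.7 CPM at 4 h. Every library after ischemia was above every normal one. Among all genes, 12.8% stood higher without overlap at 1 h. At 4 h 18.7% had no overlap in either direction, and 10.8% stood lower without overlap. The log2 fold change of F2rl1 was 2.49 at 1 h (SE 0.63, interval 1.04 to 3.93, adjusted p = 0.21) and 1.74 at 4 h (SE 0.62, interval 0.33 to 3.16, adjusted p = 0.307). F2r, the main thrombin receptor, was at 39, 11.1 and 23.7 CPM in normal rats, 134, 48.6 and 145 CPM at 1 h and 14.5, 27.4 and 141 CPM at 4 h. Its value at 1 h was 2.15 on the log2 scale (SE 0.88, adjusted p = 0.29). Its 3 highest libraries were those with the highest nerve marker sums, and its part from nerve was not tested. F2rl2 was at 0.668 to 7.69 CPM at 1 h and 0.219 to 2.59 CPM in normal rats.

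Platelet adhesion genes numbered 13 measured of 14 listed, and 10 were tested, with 1 (Selp) at an unadjusted p under 0.05 at 1 h and 0 at 4 h, against 16.7% and 12.4% of all genes. Selp, the gene of P-selectin, which endothelium and platelets store, was at 8.45, 7.08 and 2.88 CPM in normal rats, 14.9, 114 and 140 CPM at 1 h and 4.88, 6.96 and 58.6 CPM at 4 h. All 1 h libraries were above all normal ones, as for 12.8% of all genes. Replicates 2 and 3 at 1 h and replicate 3 at 4 h stood apart for Selp. Its log2 fold change was 3.86 at 1 h (SE 1.18, interval 1.17 to 6.56, adjusted p = 0.232) and 1.93 at 4 h (SE 1.09, adjusted p = 0.508). Itga2b and Gp1bb, subunits of platelet receptors for fibrinogen and von Willebrand factor, were highest in replicate 2 at 4 h, at 29.9 and 9.62 CPM, the library with the highest platelet marker sum. Itga2b is also on the platelet marker list, as is Gp1bb. Elsewhere Itga2b lay between 2.88 and 6.61 CPM and Gp1bb between 0.896 and 5.21 CPM. Thrombospondins other than Thbs1 and thrombospondin receptors, 5 tested, had 0 genes at an unadjusted p under 0.05 in any comparison between 2 groups, where 16.7%, 12.4% and 2.58% of all genes passed. Thbs2 was at 23.6 ± 6.76, 20.5 ± 11.8 and 15.7 ± 3.92 CPM, Cd47, a receptor, at 106 ± 18.2, 151 ± 49.2 and 125 ± 57.7 CPM, and Comp at 4.77 ± 1.97, 3.92 ± 2.62 and 6.36 ± 5.60 CPM (SD, n = 3 each).

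**Figure D4:**
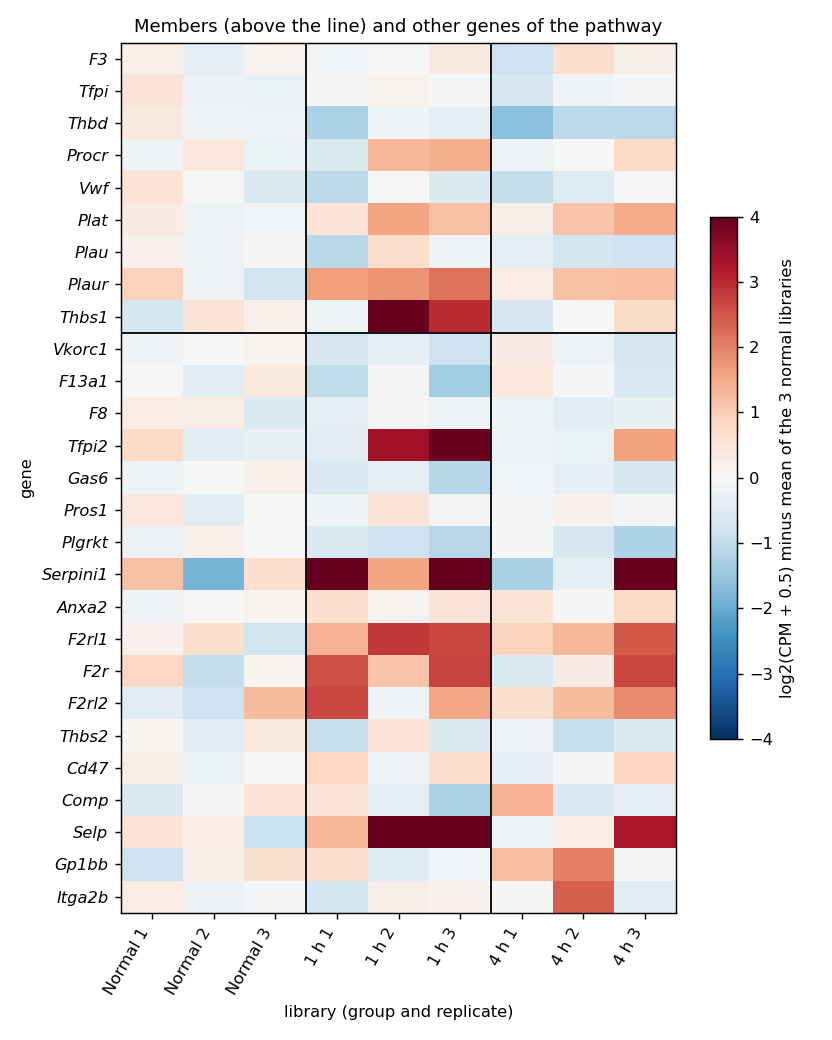
Log2(CPM + 0.5) minus the mean of the 3 normal libraries, in colour, for the 9 members (rows above the line) and 18 further genes of the pathway in the 9 libraries; the colour scale ends at 4 in either direction. Procr, Thbs1, Tfpi2 and Selp are high together in replicates 2 and 3 at 1 h, while Serpini1 and F2r are high in replicates 1 and 3 at 1 h and replicate 3 at 4 h.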

How the data were processed

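Artery RNA from 9 rats (3 normal, 3 at 1 h and 3 at 4 h of ischemia) was measured by sequencing. The authors deposited raw counts per gene symbol, 1 column per sample. HISAT2 is named in the submitters' processing notes without version, and the counting program, genome build, annotation and strand setting are not given in the sources used here. The study's methods describe Agilent arrays for these samples, whereas the deposited values are whole counts, with totals from 13114273 to 15504240 per library.

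Counts were tested in R 4.3.3 with edgeR 4.0.16: filterByExpr, TMM scaling (factors 0.814 to 1.22) and quasi-likelihood F-tests on all 9 libraries with group as the only term. Benjamini-Hochberg adjustment ran over 15482 genes, and a call needed an adjusted p under 0.05 and a fold change over 1.5, the study's thresholds. Standard errors are the size of the log2 fold change divided by the square root of F, and intervals are 95%. CPM values use TMM-scaled library sizes. The steps were also run on simulated counts, drawn independently for each gene and so without shared differences in tissue content.

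Members and lists were chosen with earlier results of these data known. All 9 members were named, and of each pathway list the 3 genes averaging at least 1 CPM with the smallest p over the 3 groups together (any called gene would also have been named), and for each member the 3 genes averaging at least 5 CPM with the highest Pearson correlation of log2 CPM (prior count 2). 1 further gene of the lists is not reported here. Alternatives were DESeq2 1.42.0, RLE or no scaling, no filter, fits of 2 groups, a replicate block, covariates for nerve or endothelial markers and leaving out each library. Upstream sequences are from RefSeq (GRCr8). Levels were not compared between genes, since no transcript lengths were used.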

Additional observations from a re-analysis of the deposited data

How the results depend on the processing

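In 16 of 27 fold changes (9 genes, 3 comparisons) the direction was kept in all 17 alternatives, including each of Thbd, Plat, Plaur and Thbs1 that had an unadjusted p under 0.05. The 11 others turned in at least 1, with reported values between -0.51 and 0.23. An unadjusted p under 0.05 held for Plat in 15 of 17 alternatives at 1 h and in 12 of 17 at 4 h. It held in all 17 for Thbd at 4 h, Plaur at 1 h, and Thbs1 at 1 h and between the stages. Scaling by library total alone moved the median of all genes to -0.15 at 4 h and -0.24 between the stages, and then F3 was -0.029 and Thbs1 -0.031 at 4 h, F3 -0.15 and Vwf -0.084 between the stages, and Plau 0.0012 at 1 h. Plau at 1 h was 0.020 with RLE factors and with DESeq2, 0.0027 without the filter, 0.010 in the fit of 2 groups, 0.14 with the nerve score and 0.11 with the endothelial score. The nerve score gave F3 -0.16 at 1 h and Plat 0.092 between the stages. The endothelial score, chosen after the data were seen, gave Tfpi 0.28 at 1 h and 0.11 at 4 h, Vwf 0.16 at 4 h and Plat 0.028 between the stages. The cause of these turns was not tested.

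Leaving out 1 library at a time gave ranges of -0.091 to 0.18 for F3, -0.18 to 0.27 for Tfpi and -0.58 to 0.35 for Plau at 1 h. At 4 h they were -0.23 to 0.42 for F3, -0.14 to 0.49 for Procr and -0.40 to 0.30 for Thbs1, and between the stages -0.30 to 0.34 for F3, -0.23 to 0.37 for Vwf and -0.39 to 0.16 for Plat.

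Members called by edgeR stayed at 0 in every alternative, while DESeq2 called 2 at 1 h, 1 at 4 h and 3 over the 3 groups together. Over all genes edgeR called 9 at 1 h, 14 at 4 h and 6 over the 3 groups, and DESeq2 702, 610 and 669. The nerve score gave 17, 121 and 30, the fit of 2 groups 4 at 1 h and 4 at 4 h, the endothelial score 5 at 4 h and 1 over the 3 groups, and no filter 11 over the 3 groups. Leaving out 1 library gave 0 to 11 at 1 h, 1 to 14 at 4 h and 0 to 7 over the 3 groups, with 0 at 1 h without normal replicate 2 (1527 at an unadjusted p under 0.05) or normal replicate 3 (1793). Leaving out any library but replicate 1 at 1 h or replicate 3 at 4 h moved the 1 h count over 1.5-fold, and leaving out any but replicate 2 at 1 h or replicate 3 at 4 h the 4 h count. With the replicate number as a block, edgeR called 7 genes at 4 h and 0 over the 3 groups, with 1782 at an unadjusted p under 0.05, and it called 0 members. The labels give only a number, and deviations of same-numbered libraries correlated at -0.651 to 0.66. Those of differently numbered libraries ran as widely, from -0.712 to 0.648, so these correlations cannot tell whether the numbers pair the rats. Low counts, such as 19 for Plaur in normal replicate 3, limit precision.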
